A study of Mus musculus with 2 samples.

Results

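Of the 1040 mouse microRNA (miRNA) probes on the array, 42 had a target sequence in which G and C made up at least 70% of the bases. They were chosen by sequence alone, as the count of G plus C over the length of the target. A further 2 probes of this kind are not reported here. The targets of the 42 were 19 to 25 bases long, and their G plus C share ran from 70% to 94.7%. The array was hybridised with RNA from ureteric bud cells, the branching epithelium of the embryonic kidney that gives rise to the collecting ducts. The kidneys came from E15.5 embryos of genotype Rosa26YFP; Hoxb7Cre, in which a yellow fluorescent reporter marks cells with a history of Hoxb7-Cre activity, and the fluorescent cells were sorted. The study holds 1 group of 2 samples. Replicate 1 was stained with Cy3, and Cy5 was used for replicate 2. A difference of dye and a difference of sample therefore cannot be told apart. There is no control group of another genotype, age or cell type here, and the labels do not say whether the samples came from separate litters.

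A miRNA is a short RNA that guides Argonaute proteins to messenger RNAs, chiefly through its seed, bases 2 to 8 counted from the 5′ end. Each miRNA is cut from a hairpin whose arms can both yield a mature product, and the array's names mark the arm held to be minor with an asterisk. Pairs of G and C are more stable than pairs of A and U, and RNAs with several runs of G can fold into G-quadruplexes. A microarray measures the fluorescence of material that stays on a probe, so levels are not comparable between probes of different sequence.

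Both samples gave a detected signal for 4 of the 42 GC-rich probes, replicate 1 alone for a further 2, and neither sample for the remaining 36. The limit for a spot was set 3 SD over the mean of the 560 blank spots on the same array. Detection of a miRNA required that 50% or more of its 3 repeat spots exceed it. This limit was 303.2 intensity units in replicate 1, against 81.1 in replicate 2. The 6 detected targets are given here because every result above background among the GC-rich probes rests on them. Seeds are in capitals, and positions are those of the exact match to RefSeq mature miRNAs of build GRCm38.p6.
miR-149*: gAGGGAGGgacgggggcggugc
miR-762: gGGGCUGGggccgggacagagc
miR-2861: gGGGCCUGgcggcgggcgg
miR-705: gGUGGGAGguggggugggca
miR-1895: cCCCCGAGgaggacgaggagga
miR-3072*: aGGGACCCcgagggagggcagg
The target of miR-149* lies at chr1:92850421-92850442 on the plus strand, within the span of Gpc1, the gene of the cell-surface proteoglycan glypican 1. In human melanoma cells this arm is known as a p53-induced repressor of the kinase gene GSK3A. The target of miR-762 lies at chr7:127708534-127708555 on the plus strand, within the span of the minus-strand gene Bcl7c. The target of miR-2861, known to promote mouse osteoblast differentiation by repressing Hdac5, lies at chr2:32712819-32712837 on the minus strand, outside the span of any other gene in the table. The target of miR-705, which represses Hoxa10 in mouse bone marrow stromal cells, lies at chr6:85336341-85336360 within Rab11fip5, on the same strand. The target of miR-1895 lies at chr3:134240515-134240536 on the minus strand, opposite Cxxc4. That of miR-3072* lies at chr12:109747893-109747914 within Mirg, a long non-coding RNA of the imprinted Dlk1-Dio3 domain. Exons and introns were not annotated in the table used. No seed was shared by any pair of the 36 members whose chromosome was known and whose sequence may be shown here.

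Of the GC-rich probes, miR-149* stood farthest above the limits. Its repeat spots gave 2427, 2536 and 2663 units in replicate 1, against 481.9, 491.1 and 508.9 in replicate 2. All 6 spots stood far above the limits, and the median spot lay at 8.36 times the limit in replicate 1 and 6.05 times in replicate 2.

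The other probes detected in both samples stood closer to the limits. The spots of miR-762 gave 785.4, 807.3 and 1214 units in replicate 1, against 121.0, 124.4 and 126.6 in replicate 2. Those of miR-2861 gave 773.9, 775.8 and 799.0 units in replicate 1, against 113.2, 123.0 and 128.6 in replicate 2. Those of miR-705 gave 707.3, 720.3 and 805.7 units in replicate 1, against 120.9, 131.3 and 132.8 in replicate 2. Every spot of these 3 probes was above its limit, at median ratios of 2.38 to 2.66 in replicate 1 and 1.52 to 1.62 in replicate 2. A high spot widened the spread of miR-762 in replicate 1, where the coefficient of variation of its repeat spots after blank subtraction was 33.0%.

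Under this limit, 2 probes were detected in replicate 1 alone. The spots of miR-1895 gave 642.1, 687.9 and 700.7 units in replicate 1, a median of 2.27 times the limit. In replicate 2 they gave 69.8, 73.6 and 76.1 units, below the limit but brighter in the median than 96.8% of blank spots. The spots of miR-3072* gave 342.8, 347.9 and 389.8 units in replicate 1, where all passed, against 60.7, 65.2 and 65.5 in replicate 2, where none did. The opposite arms miR-149 (217.3 and 53.0 units) and miR-3072 (215.7 and 56.3) were detected in neither sample. The opposite arms had G plus C shares of 60.9% and 63.6%, of which G made up only 17.4% and 18.2% of the bases, against 68.2% in miR-149* and 54.5% in miR-3072*. No opposite arm of the other 4 detected members was on the array.

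The share of GC-rich probes detected in both samples was 9.52%, beside 5.96% of all 1040 miRNA probes. Detection in replicate 1 was 14.3%, beside 7.88%, and in replicate 2 it was 9.52%, beside 6.15%. Detection in replicate 1 only held for 2 of the 42, beside 1.92% of all probes. With 42 members these shares differ from the background by few probes, and no test of a list was made. Fewer cells with a miRNA and less of it per cell cannot be told apart in such bulk RNA.

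Signal over blank was then tested for each probe with limma's treat function (2-fold bound, Benjamini-Hochberg adjustment over 1040 probes) on normalized log2 intensity minus the blank level of the array. The same 4 probes passed (9.52%, beside 3.46% of all probes), and 4 members had an unadjusted p under 0.05. The signal over blank was 4.21 ± 0.32 log2 units (moderated SE, n = 2 samples) for miR-149* (limma treat, adjusted p = 1.45e-20). This SE comes from a variance shared by probes of like signal, not from the 2 values of the probe itself. Those of miR-149* were 5.12 in replicate 1 and 3.29 in replicate 2, so its p-value does not measure how well they agree. For miR-762 the signal over blank was 1.99 ± 0.31 (limma treat, adjusted p = 0.0197). It was 1.93 ± 0.31 for miR-2861 (limma treat, adjusted p = 0.0361) and 1.90 ± 0.31 for miR-705 (limma treat, adjusted p = 0.0485). The signals of miR-1895 (1.35 ± 0.31) and miR-3072* (0.67 ± 0.32) did not pass. The median over all 42 members was 0.10 log2 units, beside 0.03 over all probes, so most members stood near the blank level.

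The calls of miR-762, miR-2861 and miR-705 were lost under 5 of 8 alternatives: no background correction, cyclic loess, no normalization, median scaling and a 4-fold bound. Over the alternatives their adjusted p in the treat test ranged from 5.31e-09, 2.07e-08 and 3.95e-08, respectively, to 1, and that of miR-149*, lost without normalization and with median scaling, from 8.21e-47 to 1.

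All 6 members detected in a sample had more G than C in the target. More G than C was present in 27 targets and more C than G in 15. Of the 27, 4 (14.8%) were detected in both samples and 6 (22.2%) in replicate 1, while of the 15 none was detected in either sample. Of all miRNA probes, 5.96% were detected in both samples and 7.88% in replicate 1. At such shares few of 15 probes would be detected, so a count of 0 is near the background. Below 70% G plus C, 6.36% of the 519 probes with more G than C and 4.64% of the other 474 were detected in both samples. Dividing the members by a G share of at least 50%, 4 of 16 were detected in both samples above that share and 0 of 26 below it, with miR-1895 (45.5% G) detected in replicate 1. At the share of all probes, few of these 26 would be detected in both samples either. Among probes under 70% G plus C, 3 of 22 with at least 50% G were detected in both samples, against 52 of 971 with less. One of these 3 was miR-709, whose G plus C share of 68.4% lies just under the threshold, at 18954 and 6518 units.

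Runs of G were searched as GGG or longer, on the target strand only, with each unbroken run counted once. At least 1 run was present in 28 members, of which 4 (14.3%) were detected in both samples, beside 6.18% of all 259 probes with a run. Among the 14 members without a run, miR-1895 was detected in replicate 1. Under 70% G plus C the shares detected in both samples were 5.19% with a run and 5.64% without. At least 2 runs were present in 14 members, all 4 detected in both samples among them, and in 4.04% of all miRNA probes. Of 28 probes under 70% G plus C with at least 2 runs, 1 was detected in both samples. Runs of CCC were present in 21 members, of which 0 were detected in both samples and 2, miR-1895 and miR-3072*, in replicate 1. Under 70% G plus C, 10 of 173 probes with CCC (5.78%) were detected in both samples, near the 5.96% of all probes. The pattern GGGNGGG was chosen after the values were seen and was present in 0.865% of all probes. Of the 6 members that held it, miR-149* and miR-705 were detected in both samples, miR-3072* in replicate 1 and miR-3077*, miR-3102* and miR-1982* in neither. Under 70% G plus C, 3 probes held it, of which 0 were detected in both samples and 1, miR-1892, in replicate 1. In all, 2 of the 9 probes with the pattern were detected in both samples, beside 5.96% of all probes.

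Among members of like G content some were detected and others were not. The following targets set detected members beside undetected ones of like or opposite composition, and runs of at least 3 G are in capitals.
miR-149*: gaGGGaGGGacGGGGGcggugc
miR-328*: GGGGGGcaggaGGGGcucaGGG
miR-705: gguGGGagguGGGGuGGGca
miR-1982*: uuGGGaGGGuccuGGGGagg
miR-762: GGGGcuGGGGccGGGacagagc
miR-3077*: cugcggacGGGuGGGcGGGcaggcc
miR-760-5p: ccccucaggccaccagagcccgg
miR-1188*: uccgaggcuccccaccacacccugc
The targets of miR-149* and miR-328* had the same length of 22 bases, the same G plus C share of 81.8%, the same G share of 68.2% and 3 runs of G each. While miR-149* was detected in both samples, miR-328* was detected in neither, at 235.2 and 51.3 units, and its level in replicate 2 was below the median blank spot of 58.4. The probe for miR-1982*, with 60% G and 3 runs, was undetected at 220.8 and 49.3 units, while miR-705, also with 3 runs, was detected. The probe for miR-3077* was undetected as well, at 280.8 and 64.1 units, 0.926 and 0.791 times the limits. With a limit set without the brightest blank spot, miR-3077* passed in replicate 1. This arm is known to repress Runx2 in mouse bone marrow stromal cells. The C-rich miR-760-5p (52.2% C) gave 226.0 and 52.1 units, and miR-1188*, with the highest C share of all members (56.0%), gave 228.9 and 62.9. Neither was detected.

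The share of purines, G plus A, was examined after the values were seen. It was at least 70% in 8 members, of which 3 were detected in both samples and 5 in replicate 1. These 5 were miR-149*, miR-705, miR-3072*, miR-762 and miR-1895. Of the other 34, miR-2861 (68.4% purine) was detected. Under 70% G plus C, 3 of 33 probes with at least 70% purines were detected in both samples and 5 in replicate 1. The undetected purine-rich members were miR-328*, miR-1982* and miR-3102-5p.2.

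The 36 members detected in neither sample lay between 199.9 and 294.5 units in replicate 1, and in replicate 2 between 47.8 and 64.6. Their median intensity was 223.7 and 55.3 units, against median blank spots of 203.1 and 58.4. In replicate 1, 97.2% of them were above the median blank spot, as were 97.9% of undetected probes under 70% G plus C. In replicate 2 the shares were 33.3% (12 of 36) and 7.08%. The GC-rich background was thus above the blank level on the Cy3 array and mostly below it on the Cy5 array. Blank spots were placed unevenly, with 336 of 560 in the outermost 6 rows at either end, and those of the inner rows had medians of 207.8 and 60.7 units.

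In replicate 2 the background rose over classes of G plus C share. The share of undetected probes above the median blank spot was 2.02% under 40% G plus C, 6.27% from 40% to 50%, 6.67% from 50% to 60%, 17.3% from 60% to 70% and 33.3% at 70% or more. The corresponding median intensities were 51.5, 52.7, 52.9, 54.2 and 55.3 units. In replicate 1 they were 221.9, 221.6, 221.7, 224.7 and 223.7 units, with no such order. Across 954 undetected probes, Spearman's rho between G plus C share and raw intensity was 0.281 in replicate 2 and 0.115 in replicate 1. Among the 36 undetected members alone the samples stood the other way, with a rho of -0.067 in replicate 2 and 0.400 in replicate 1. These probes share an array and its blank spots, and the values are a description. In replicate 2, 46.7% of the C-rich undetected members were above the median blank spot, against 23.8% of those with more G, so C-rich members were not dimmer in background there.

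Detection itself followed no steady order over the same classes. Detection in both samples held for 3.30%, 8.18%, 4.95%, 4.29% and 9.52% of probes from the lowest to the highest class. Within the members, all 4 detected in both samples were among the 20 at 75% G plus C or more (20.0%), and 0 were among the 22 from 70% to 75%. At the 5.96% of all miRNA probes few of these 22 would be detected, so a count of 0 is near the background. At 80% or more, 3 of 9 were detected in both samples. The undetected members of highest share were miR-1893 (86.4%, 224.7 and 54.2 units), miR-2137 (85.7%, 294.5 and 56.1 units) and miR-3077* (84.0%). For miR-2137 a single spot, at 317.5 units, passed the limit in replicate 1.

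At the threshold of 70% lay miR-324-3p (213.8 and 64.5 units), miR-760-3p (216.2 and 52.0), miR-1982* and miR-3113* (222.8 and 59.2), all undetected. Just below it, at 69.6%, lay miR-598* (235.2 and 58.3 units) and miR-671-5p (257.7 and 53.3), also undetected. Apart from miR-3077*, the undetected members nearest to both limits were miR-1188*, miR-681 (225.3 and 63.0 units), miR-615-5p (0.760 and 0.739 times the limits) and miR-3113*. The last gave less than 0.74 of either limit.

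Members with shared sequence or a shared hairpin were mostly undetected, as were most members and most miRNA probes. Both arms of 5 hairpins, or 2 products of an arm, were members: miR-1199, miR-3102, miR-3113, miR-760 and miR-874. None of these 10 probes was detected, near the background, since 36 of the 42 members and 956 of all 1040 miRNA probes were detected in neither sample. The longest stretch shared by any pair was 15 bases, between miR-3113 and miR-3113*, so their signals cannot be counted as separate. The detected miR-149* shared at most 9 bases with another member, miR-3072*, and miR-762 shared 9 with the undetected miR-346* (223.8 and 53.4 units). On chromosome 12 lay 7 members. Of these, miR-770-3p, miR-1188* and miR-3072* lie within Meg3, Rian and Mirg, transcripts of the Dlk1-Dio3 domain, and miR-3072* alone was detected, in replicate 1. An asterisk marked 13 members, of which 1 was detected in both samples, against 2 of all 329 asterisk probes.

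The samples were compared by normalized log2 signal, replicate 1 minus replicate 2, with no test because there was 1 sample per dye. The signal of miR-149* was 11.18 in replicate 1 and 9.76 in replicate 2 (10.47 ± 1.01, SD, n = 2), a difference of 1.42. Those of miR-762 were 8.46 and 8.04 (8.25 ± 0.29), of miR-2861 8.36 and 8.03 (8.19 ± 0.23) and of miR-705 8.20 and 8.12 (8.16 ± 0.06). All 4 were thus brighter in replicate 1 after normalization, beside 32.3% of the 62 miRNAs detected in both samples. At least 2-fold apart was miR-149* alone, beside 6.45% of the 62 in this direction. The median difference was 0.37 over the 4 members and -0.24 over the 55 other detected miRNAs under 70% G plus C.

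The same direction was seen without normalization. After subtraction of the median blank spot, raw intensity in replicate 1 exceeded that in replicate 2 by 5.39 times for miR-149*, 9.16 times for miR-762, 8.87 times for miR-2861 and 7.10 times for miR-705. All 4 ratios were above 3.74, the median of the 62. In the authors' deposited table of processed values, miR-149* was at 5544 and 2645, miR-762 at 981 and 564, miR-2861 at 938 and 555 and miR-705 at 878 and 622. The scale and centring of that table are not stated, and its values followed the raw intensities of each sample with Spearman's rho of 0.833 and 0.910. Leaving out normalization moved the median difference of all probes to 0.69. Relative to the median of the other detected miRNAs under each of 7 settings and in the deposited table, the excess in replicate 1 ranged from 0.87 to 1.92 for miR-149*. It ranged from 0.59 to 1.08 for miR-762, from 0.51 to 1.04 for miR-2861 and from 0.28 to 0.78 for miR-705. The size therefore depended on the scaling, while the sign did not.

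The probes for miR-1895 and miR-3072* were below the limit in replicate 2, so the size of their difference was not fixed. For miR-1895 it was 1.07 log2 units after normalization, 2.05 with subtraction of the median blank spot and 1.78 in the authors' deposited table. For miR-3072* it was 0.35 after normalization, 1.83 with that subtraction and 1.15 in the authors' deposited table. Across the 59 detected miRNAs of the comparison, the difference between samples had a Spearman's rho of 0.343 with G plus C share, 0.231 with G share and -0.02 with C share. These relations are weak, are across miRNAs measured on the same 2 arrays and are given as a description. Of the 6 detected miRNAs from 60% to 70% G plus C, 2 were brighter in replicate 1. Dye and sample moved together with every one of these differences, and their parts cannot be told apart.

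As a check of the labelled tissue, miR-200b, miR-200c and miR-429 of 5 listed epithelial miRNAs were detected in both samples, with miR-200c at 2110 and 759.5 units. The others listed, miR-200a and miR-141, were detected in neither sample. The lowest median spots of this list were 207.9 units in replicate 1 and 51.9 in replicate 2. Of 14 listed markers of mesenchyme, endothelium, blood, muscle, nerve and liver, 0 were detected in both samples and miR-214 in replicate 2 only, the median spots of the whole list lying between 211.0 and 281.0 units in replicate 1 and between 44.4 and 88.0 in replicate 2.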

How the data were processed

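Small RNA from 2 samples was tagged and hybridised by a service provider, per the labels' protocols. The authors deposited the mean intensity of each of 3968 spots per array, per the file headers, without background subtraction, since blank spots stood well above 0. They also deposited a table of processed intensity values, whose processing is not given in the sources used here. The scanner is likewise not given. The G plus C share was computed from the target column. Detection used raw intensities, the median of 3 repeat spots and the 560 blank spots. For the treat test, intensities were corrected with normexp fitted to every spot, with an offset of 50. Their log2 values were quantile-normalized over the 3120 miRNA spots, and the median repeat spot was used. The blank level was carried through the same map. The fit used all 1040 probes, and its prior degrees of freedom were infinite, so probes of like signal shared a variance. R 4.3.3, limma 3.58.1 and SciPy 1.17.1 were used. Detection and the treat test were tested on simulated data. Of the 42 targets, 32 matched a RefSeq mature miRNA exactly and 6 a gene symbol only. Probes of 2 miRNA numbers, 5 in all, were left out of the classes by base content. The members and lists were chosen with earlier results of these data known. The text names all detected members, their opposite arms, members near either threshold, those of highest G plus C share and those with shared sequence. Others were chosen after their values were seen. The number of arrays limits the precision. The p-values rest on a variance shared by probes of like signal, not on how well the samples agree for a given probe. That variance comes only from the spread between these samples, which may be technical.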

Additional observations from a re-analysis of the deposited data

How the results depend on the processing

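Limits from blank spots without the brightest, from spots named empty and from inner rows were chosen after seeing the data. The same 4 GC-rich probes were detected in both samples under all of these, at 6 SD, with a median-based limit and with all repeat spots required. At the 95th percentile of blank spots 5 were, the same 4 among them, and at 10 SD 1, miR-149*, so that 1 member with more G than C was then detected in both samples. Replicate 2 alone gave 4 and replicate 1 alone 6. With a threshold of 65% G plus C the count was 7 of 95 probes, against 4 of 42 at 70% and 5.96% of all miRNA probes. Detection in 1 sample only, 2 members, became 1 at 6 SD and with inner-row blanks, 4 at 10 SD, 13 at the 95th percentile, and 5 both with the median-based limit and without the brightest blank spot, where miR-3077*, miR-2137 and miR-714 passed in replicate 1. At the 95th percentile the limit in replicate 1 was 226.1 units, near the median of 222.9 over all miRNA probes. The share of all probes that passed this limit is not given here. The treat count of 4 became 1 without background correction, beside 28 of all 1040 probes, and with loess, beside 29. It was also 1 with a 4-fold bound, for which the count over all probes is not given here. It became 0 without normalization and with median scaling, where 1 member had an unadjusted p under 0.05 and 2 of all 1040 probes passed. Subtraction of the blank gave 5, beside 59 of all 1040 probes. The count at least 2-fold apart, 1, became 4 without normalization and with median scaling, and 0 with loess. In the settings that gave 4, the other detected miRNAs were shifted too, with median differences of 1.40 without normalization and 0.71 with median scaling. The share of all detected miRNAs at least 2-fold apart there is not given here, so that count is not a result about the members. The causes were not tested. Median log2 signal over blank by G plus C class moved by less than the SD between the samples, 0.14 to 0.22, under the alternatives run. That bound is wider than the range of class medians, 0.13 to 0.15 in replicate 1 and -0.17 to -0.06 in replicate 2. It therefore cannot show whether the order of classes held. In replicate 2 the medians of the lowest and highest class were -0.19 and -0.07 with means of repeat spots, and -0.18 and -0.08 over undetected probes. No paired analysis was possible because there is a single group. The signal over background limits what could be detected, and an undetected miRNA may have been present below the limits.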
